A study of Canis lupus familiaris with 6 samples.

Results

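The canine mammary tumor cell lines P114 (anaplastic cancer) and CMT-U309 (spindle cell mammary tumor) were compared with each other in gene expression on 4 of the 6 two-color Agilent canine 4x44K arrays of the study, 2 arrays per line. The remaining 2 arrays carried CMT-U27 (simple carcinoma), which was compared with neither line and entered only 1 alternative fit. In the study, each line was grown in RPMI-1640 with 10% fetal bovine serum, either alone (monoculture) or together with myeloid-derived suppressor cells (MDSCs) that came from healthy donor dogs and sat in transwell inserts, apart from the tumor cells (co-culture). The methods gave 48 h of co-culture and the sample labels at least 72 h. Both arrays of a line carried its monoculture and its co-culture RNA, with the dyes Cy3 and Cy5 exchanged between them.

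Each line was therefore measured in 4 channels, which were monoculture in Cy3, monoculture in Cy5, co-culture in Cy5 and co-culture in Cy3. Values are the background-subtracted processed signals on the log2 scale after every channel was brought to the same median, and differences are P114 minus CMT-U309 within the same dye and the same culture condition, which gives 4 matched differences per probe. A gene is represented by its brightest probe. Of 13204 named genes, 8035 were well above background in all 8 channels and are called measured in both lines. A further 16 were well above background in all 4 P114 channels and in 0 of the CMT-U309 channels, and 161 the other way round. In 949 genes the signal was complete in 1 line and partial in the other, in 2754 it was partial only, and in 1289 no channel reached that level. Each line is a single cell line with 1 RNA per culture condition. Its 2 arrays shared a slide that held no array of the other line, so line and slide cannot be told apart. The p-values rest on how much the line difference changed between monoculture and co-culture, a spread partly shared across probes. They do not measure the spread between independent cultures.

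Carcinoma cells of epithelial origin usually keep keratin filaments and the adhesion proteins of epithelial junctions. Spindle cell tumors of the canine mammary gland have elongated cells that resemble connective tissue cells, which secrete fibrillar collagens and small proteoglycans and hold contractile proteins of the actin cytoskeleton. MDSCs are immature myeloid cells that restrain T cells, and the study asked what signals pass from them to the tumor cells.

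The probes of 6 genes that carry the contrast between the lines are shown for orientation, 3 of genes higher in P114 and 3 of genes higher in CMT-U309. They are the 60-base oligonucleotides printed on the array, 5′ to 3′, and their canFam2 positions are those given in the array annotation. The first 3 belong to KRT7, a keratin of simple epithelia, at chr27:5823246-5824940 (minus strand), to GATA3, a transcription factor of luminal mammary cells, at chr2:30912991-30913050 (minus strand), and to MMP13, a collagenase, at chr5:31867714-31868765 (plus strand). The last 3 belong to CDH11, a cadherin of mesenchymal cells, at chr5:87128176-87128235 (plus strand), to TPM2, a tropomyosin of actin filaments, at chr11:55241357-55241416 (minus strand), and to PTN, the growth factor pleiotrophin, at chr16:14311932-14314306 (plus strand). The intervals of KRT7, MMP13 and PTN are longer than the probe.
KRT7: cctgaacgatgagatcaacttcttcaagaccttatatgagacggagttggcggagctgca
GATA3: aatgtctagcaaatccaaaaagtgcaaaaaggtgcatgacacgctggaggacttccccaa
MMP13: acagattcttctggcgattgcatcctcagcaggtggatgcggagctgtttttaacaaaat
CDH11: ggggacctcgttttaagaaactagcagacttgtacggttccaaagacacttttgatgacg
TPM2: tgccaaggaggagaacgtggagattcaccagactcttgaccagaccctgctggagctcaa
PTN: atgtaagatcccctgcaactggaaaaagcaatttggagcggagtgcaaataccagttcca

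The signals of the 2 lines, each on its own slide, differed far more from each other than monoculture differed from co-culture within a line. Across the 8035 genes the SD of the line difference was 0.814 on the log2 scale, against 0.234 for the co-culture change in P114 and 0.311 in CMT-U309. These spreads are not alike. The co-culture change is taken between channels of the same arrays, and the line difference between slides. The part of the slide was not tested. The channels correlated at 0.988 to 0.991 within P114, at 0.986 to 0.993 within CMT-U309 and at 0.929 to 0.941 between the lines, and the 4 matched differences correlated with each other at 0.743 to 0.882. These are correlations across genes, which are not independent replicates. The share of spots well above background ran from 55.2% to 69.0% in the P114 channels and from 53% to 81.0% in the CMT-U309 channels, and no spot was saturated. The median processed signal before scaling was about 189 in both channels of CMT-U309 replicate 1 and between 59.0 and 68.9 in the other 6 channels.

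A gene was called when its mean difference was at least 1 on the log2 scale (2-fold) and its adjusted p in limma was under 0.05. By this rule 581 genes (7.23%) were higher in P114 and 456 (5.68%) were higher in CMT-U309. These shares over all genes are the ones to set beside the counts of each gene list below. A stricter count asked for a difference of at least 2-fold in each of the 4 matched channels, with no p-value, and held 265 genes (3.30%) for P114 and 272 (3.39%) for CMT-U309. The adjusted p alone was under 0.05 for 3146 genes. The median difference of all 8035 genes was 0.10. Another probe of the same gene was measured in both lines for 357 of the called genes, and in 345 of them every such probe lay on the same side of 0. The calls depended on scaling: with quantile normalization the P114 share of all calls was 45.4% instead of 56%, and with no scaling, where the median of all genes moved to -0.68, it was 5.99%. With normexp background correction 84 genes were called higher in P114 and 134 in CMT-U309, and the calls of each list under it are given as 2 counts, P114 first. Beside the median of a gene list, a value in parentheses is its median under a scaling that turned its sign. The probes of the called genes had a median GC content of 43.3% (P114) and 45.0% (CMT-U309), against 45.0% in genes not called, and the part of probe composition in the calls was not tested. The largest differences and bounds, and the largest members of each list, were taken by a fixed rule, and other genes named to complete a count or as familiar members of a list were chosen after their values were seen.

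**Figure D1:**
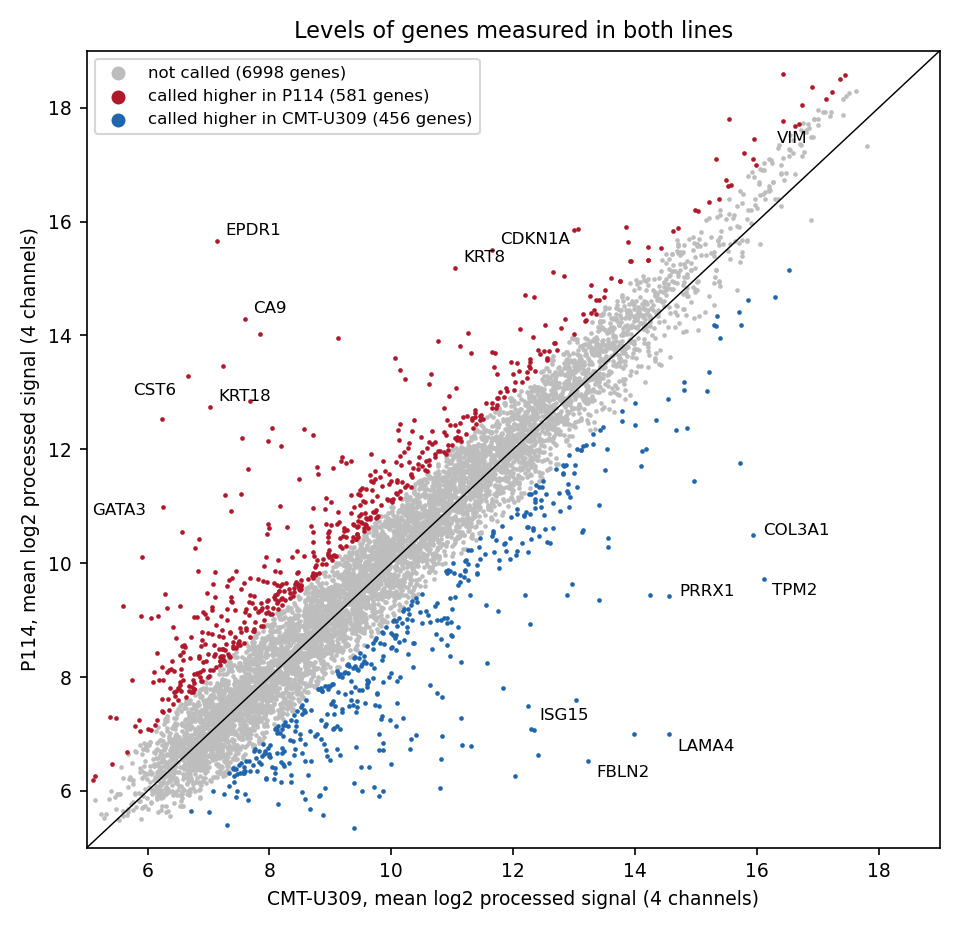
Mean log2 processed signal of each gene measured in both lines, CMT-U309 on the horizontal and P114 on the vertical axis, each the mean of 4 channels. Red points were called higher in P114 (581 genes) and blue points higher in CMT-U309 (456 genes), gray points were not called, and the line marks equal signal. Among the labeled genes, EPDR1 and CA9 lie farthest above the line, LAMA4 and FBLN2 farthest below it, and VIM is close to it in the upper right.

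The genes with the largest differences toward P114 were EPDR1, CA9, CST6, SLC2A9 and an olfactory receptor gene, cOR51G4. EPDR1, which encodes a secreted protein related to ependymin, had log2 signals of 15.42, 15.80, 15.29 and 16.09 in P114 and 7.87, 7.47, 6.59 and 6.61 in CMT-U309, in the order monoculture Cy3, monoculture Cy5, co-culture Cy5 and co-culture Cy3, the order used throughout. The lowest P114 value thus lay far above the highest CMT-U309 value, and the mean difference was 8.51 ± 0.80 (SD of the 4 matched differences), or 365-fold (adjusted p = 2.5e-10). CA9, a membrane carbonic anhydrase that is induced under hypoxia in many tumors, was at 14.07, 14.13, 14.45 and 14.52 in P114 and 7.54, 7.36, 7.91 and 7.57 in CMT-U309. The groups did not overlap, and the difference of 6.70 ± 0.20 was 104-fold (adjusted p = 1.3e-10). CST6, an inhibitor of cysteine proteases, differed by 6.63 ± 0.22, SLC2A9, a urate transporter, by 6.29 ± 0.26, and cOR51G4 by 6.23 ± 0.33. TMEFF2, a transmembrane protein with follistatin-like modules (6.18 ± 0.46) and STC1, the secreted glycoprotein stanniocalcin (4.83 ± 0.40), were also among the largest, together with KRT18 and GATA3. In all of these genes the 4 P114 channels were above the 4 CMT-U309 channels. The rule that chose them asked for at least 2-fold in all 4 matched differences, so the lack of overlap follows largely from that choice. It is a description and no further support, here and for the other genes chosen by that rule.

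Toward CMT-U309, the largest differences were those of LAMA4, GSTA3, FBLN2 and TPM2. LAMA4, a laminin chain of vessel and muscle basement membranes, had log2 signals of 6.96, 7.12, 6.83 and 7.10 in P114 and 14.86, 14.67, 14.32 and 14.39 in CMT-U309. Its difference of -7.56 ± 0.26 was 189-fold (adjusted p = 8.8e-11), and the groups did not overlap. FBLN2, an elastic fiber glycoprotein, was at 6.19, 7.01, 6.57 and 6.35 in P114 and 13.14, 13.50, 13.23 and 13.04 in CMT-U309, a difference of -6.70 ± 0.19 with no overlap. GSTA3, a glutathione transferase (-7.0 ± 0.31), LGALS9, a galactoside-binding lectin (-5.78 ± 0.45), C17H1orf54 (-5.43 ± 0.37) and PPM1H, a protein phosphatase (-5.28 ± 0.28), followed. The probes of CA9 and TPM2 lie 1225 bases apart on chromosome 11, and their genes differed in opposite directions, by 6.70 and -6.38.

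Some genes gave a signal in 1 line only. For these a fold cannot be measured, and a bound is given instead, which sets the bright line's mean against the higher of the dim probe's own signal and the lowest signal that counted as well above background in each channel, after loess and Aquantile normalization. In P114 the largest bound belonged to MMP13, which was well above background in 4 P114 channels, at 12.21, 12, 11.73 and 11.90, and in 0 CMT-U309 channels, so that P114 was at least 306-fold higher. TMEM211 was at least 89.9-fold higher in P114, SPP1 (osteopontin) at least 40.04-fold, SLC9B1, a sodium-proton exchanger, at least 32.6-fold, NAALAD2, a peptidase, at least 22.4-fold and KRT42, a type I keratin gene, at least 15.1-fold. In CMT-U309, MFAP5, a microfibril protein, was at 12.80, 12.54, 12.95 and 12.86 and at least 288-fold higher. CA2, a cytosolic carbonic anhydrase (at least 239-fold), FAM20A (100.3-fold), LIPC, hepatic lipase (81.5-fold), TFPI2, a serine protease inhibitor (68.4-fold), and MPPED2 (64.96-fold) had the next largest bounds. CA9 and CA2, both carbonic anhydrases, thus stood at opposite ends, the former higher in P114 and the latter in CMT-U309.

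Keratins and epithelial junction genes were compared between the lines, and the called members were mostly higher in P114. Of the 27 genes of the keratin list on the array, which does not include KRT42, only 5 were measured in both lines. Of these, 3 (KRT18, KRT8 and KRT7) were called higher in P114 and 0 in CMT-U309. The log2 signals of KRT18 were 12.54, 13.01, 12.48 and 12.93 in P114 and 7.38, 6.71, 6.80 and 7.23 in CMT-U309. All 4 P114 values were well above all 4 CMT-U309 values, and the difference was 5.71 ± 0.47, or 52.3-fold (adjusted p = 3.4e-10). KRT8, which pairs with KRT18 in the filaments of simple epithelia, had signals of 15.19, 15.07, 15.20 and 15.25 in P114 and 10.79, 10.71, 11.37 and 11.35 in CMT-U309. Its difference was 4.12 ± 0.30 (17.4-fold, adjusted p = 1.0e-08), and it was well above background in CMT-U309 too. KRT7, whose probe is shown above, was at 10.58, 10.46, 10.65 and 10.52 in P114 and 6.18, 6.54, 6.71 and 6.82 in CMT-U309, a difference of 3.99 ± 0.30 without overlap. KRT14, a keratin of basal and myoepithelial cells, was not called (-0.73 ± 0.54, adjusted p = 0.0082), nor was KRT71 (-0.14 ± 0.17). The median of the 5 keratins was 3.99. With normexp the calls were again 3 and 0, and without replicate 1 they were 3 and 1.

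A further 3 keratin genes were complete in P114 and partial in CMT-U309, a class that genes higher in P114 enter more readily. Among them KRT19 and KRT15, named after their values were seen, were at 10.32, 10.20, 9.75 and 9.60 and at 13.45, 13.62, 13.53 and 13.35 in P114, and in CMT-U309 they were well above background in 3 and 3 of 4 channels. Another probe of KRT15 gave -0.56, so that gene is uncertain. KRT17 was near background in both lines, with 1 P114 and 3 CMT-U309 channels above it. No probe was found by the name KRT5.

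The epithelial junction genes are those of tight junctions, desmosomes and epithelial adhesion. Of 12 measured in both lines, 5 were called higher in P114 and 1 in CMT-U309, with a median of 0.85 against 0.10 for all genes. These calls were 3 and 0 with normexp, 8 and 1 without replicate 1 and 5 and 0 without replicate 2. EPCAM, an epithelial adhesion molecule, had log2 signals of 9.30, 9.94, 9.09 and 9.58 in P114 and 7.65, 7.11, 6.57 and 6.59 in CMT-U309. The highest CMT-U309 value, in monoculture Cy3, was still below the lowest P114 value, and the difference was 2.50 ± 0.59 (adjusted p = 1.4e-06). TJP3, a scaffold of tight junctions (2.72 ± 0.23), PERP, a desmosome protein (1.98 ± 0.41), and PPL, periplakin (1.66 ± 0.42), were also among the 5. PKP2, a desmosomal plaque protein, was the member called the other way (-1.25 ± 0.47, adjusted p = 8.8e-04). CDH1, the epithelial E-cadherin, was near background in both lines, in P114 at 3.88, 4.54, 4.65 and 3.39 and in CMT-U309 at 4.19, 4.07, 3.78 and 3.67, with 2 channels above background in each line.

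Among transcription factors and regulators of epithelia, 5 of 23 were measured in both lines, with 1 called in each direction and a median of 0.48 (-0.29 without scaling). The median was 0.90 in monoculture and 0.12 in co-culture, and normexp gave 1 and 0 calls. TFAP2C, an AP-2 factor of the mammary gland, was higher in P114 (1.74 ± 0.29), and KLF5, a factor of proliferating epithelia, was higher in CMT-U309 (-1.15 ± 0.21). ESRP1, a splicing regulator of epithelial cells, was well above background in 4 CMT-U309 and 0 P114 channels, at least 4.76-fold higher in CMT-U309. SFN, the epithelial 14-3-3 sigma protein, was added after its values were seen: it was at 11.86, 10.81, 11.09 and 11.12 in P114 and well above background in 2 of 4 CMT-U309 channels.

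**Figure D2:**
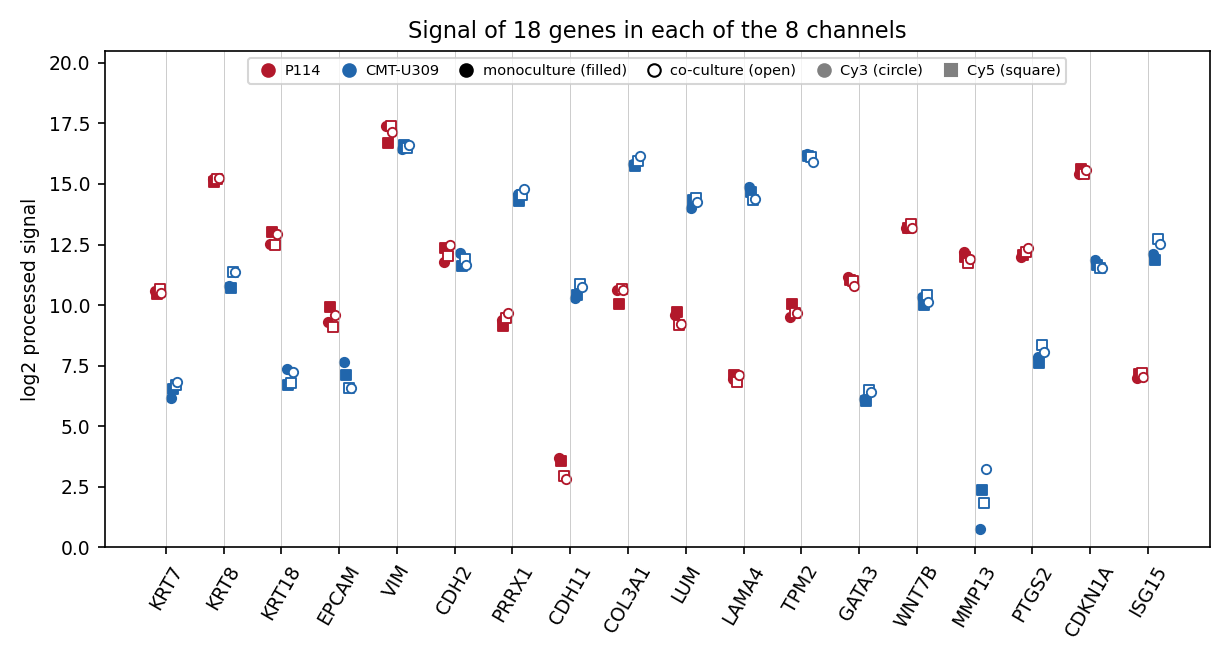
Log2 processed signal of 18 genes in each of the 8 channels, P114 in red and CMT-U309 in blue, with filled symbols for monoculture, open symbols for co-culture, circles for Cy3 and squares for Cy5. KRT7, KRT8, KRT18 and EPCAM are higher in all 4 P114 channels, PRRX1, CDH11, COL3A1, LUM, LAMA4, TPM2 and ISG15 in all 4 CMT-U309 channels, and the CDH2 channels of the lines overlap.

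Of 19 regulators and cytoskeletal genes of mesenchymal cells measured in both lines, 1 (5.26%) was called higher in P114 and 3 (15.8%) in CMT-U309. The shares over all genes were 7.23% and 5.68%, and the list median was 0.08 (-0.21 with quantile normalization). Normexp gave 0 and 2 calls, and the P114 calls were 0 without replicate 1 and 2 without replicate 2. PRRX1, a homeobox factor of mesenchyme, had log2 signals of 9.39, 9.12, 9.48 and 9.69 in P114 and 14.57, 14.30, 14.53 and 14.80 in CMT-U309. It differed by -5.13 ± 0.07, or 35.0-fold (adjusted p = 7.3e-10), with the groups far apart. FAP, fibroblast activation protein, differed by -3.87 ± 0.31 and PRRX2 by -1.10 ± 0.17. CDH11, whose probe is shown above, was at 10.28, 10.42, 10.87 and 10.75 in CMT-U309, was well above background in 0 P114 channels, and was at least 61.5-fold higher in CMT-U309. SNAI1, a repressor of E-cadherin, was the gene called higher in P114 (1.09 ± 0.80, adjusted p = 0.011), while SNAI2 (-0.33 ± 0.27), ZEB1 (-0.27 ± 0.50) and TWIST2 (-0.34 ± 0.35) were not called. A further 2 members, NT5E and TCF21, were complete in P114 and partial in CMT-U309, a class that genes higher in P114 enter more readily. Their mean log2 signals were 7.36 and 6.05 in P114 and 4.27 and 5.49 in CMT-U309. Each was well above background in 3 of 4 CMT-U309 channels. No probe was found by the name TWIST1.

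VIM, the intermediate filament protein vimentin of mesenchymal cells, was bright in both lines, at 17.39, 16.69, 17.41 and 17.16 in P114 and 16.44, 16.63, 16.48 and 16.59 in CMT-U309. All 4 P114 values were above the CMT-U309 values, by 0.63 ± 0.42 (adjusted p = 0.015), under 2-fold, and the sign turned to -0.12 with quantile normalization, -0.14 with loess and Aquantile normalization and -0.15 without scaling. CDH2, the mesenchymal N-cadherin, was at 11.78, 12.35, 12.01 and 12.49 in P114 and 12.16, 11.62, 11.89 and 11.64 in CMT-U309, values that overlap, and differed by 0.33 ± 0.57 (adjusted p = 0.15), a sign that turned to -0.44 without scaling. Of 10 other cadherins and protocadherins measured in both lines, 1 (10.0%, against 7.23% of all genes), PCDHGC3 (1.04 ± 0.25), was called higher in P114 and 0 in CMT-U309. Their median was 0.23 (-0.55 without scaling), and with normexp none was called.

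More collagens and matrix proteins were called higher in CMT-U309 than in P114. Of 14 collagen genes measured in both lines, 0 were called higher in P114 and 6 in CMT-U309, with a median of -0.69 (calls of 0 and 2 with normexp). COL3A1, the collagen of reticular fibers, had log2 signals of 10.62, 10.03, 10.68 and 10.63 in P114 and 15.84, 15.75, 15.93 and 16.17 in CMT-U309. The groups did not overlap, the difference of -5.44 ± 0.24 being 43.3-fold (adjusted p = 4.5e-10). COL7A1, of the anchoring fibrils (-3.86 ± 0.08), COL6A1, of beaded filaments (-2.17 ± 0.20), COL22A1 (-1.59 ± 0.57), COL1A1, of the main fibrillar collagen (-1.37 ± 0.43), and COL5A1, which nucleates such fibrils (-1.11 ± 0.53), were the others. COL1A2 (-0.50 ± 0.26) and the basement membrane collagens COL4A1 (0.35 ± 0.28) and COL4A2 (-0.07 ± 0.32) were not called, and the other probes of COL1A2 ran from -1.73 to -0.01. COL2A1, the cartilage collagen, was at least 6.69-fold higher in CMT-U309. COL8A1, chosen after its values were seen, was at 11.31, 11.32, 11.33 and 11.24 in CMT-U309, and in P114 it was well above background in 1 of 4 channels.

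Of 25 matrix glycoproteins and proteoglycans measured in both lines, 2 were called higher in P114 and 11 in CMT-U309, with a median of -0.57 (calls of 0 and 4 with normexp). LUM, lumican, a small proteoglycan that binds collagen fibrils, had log2 signals of 9.59, 9.72, 9.20 and 9.22 in P114 and 14.02, 14.32, 14.42 and 14.26 in CMT-U309. There was no overlap, and the difference was -4.82 ± 0.37, or 28.3-fold (adjusted p = 3.5e-09). OGN, osteoglycin (-4.50 ± 0.24), and DCN, decorin (-2.33 ± 0.24), belong to the same family of small proteoglycans and were called in the same direction, and ASPN, asporin, was at least 26.4-fold higher. MFAP2, of microfibrils (-3.52 ± 0.81), TIMP3, an inhibitor of metalloproteinases (-2.55 ± 0.18), SRPX (-1.84 ± 0.37), FBLN5 (-1.76 ± 0.48), THBS3 (-1.52 ± 0.04), TGFBI (-1.29 ± 0.31) and FBLN1 (-1.20 ± 0.31) completed the 11 with FBLN2. The members called higher in P114 were MGP, matrix Gla protein (1.76 ± 0.33), and VCAN, versican (1.07 ± 0.41). SPARC, an osteonectin (-0.86 ± 0.27), and BGN, biglycan (-0.10 ± 0.95), were not called. THBS2, POSTN and MATN3 were also detected in CMT-U309 only, with bounds of 3.64-fold, 5.47-fold and 2.73-fold. EFEMP2, a fibulin named after its values were seen, was at 13.93, 13.81, 13.31 and 13.71 in CMT-U309 and well above background in 2 of 4 P114 channels.

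Enzymes that cut or cross-link the matrix were split between the lines. Of 34 measured in both, 6 were called higher in P114 and 5 in CMT-U309, with a median of -0.18 (calls of 3 and 1 with normexp). In P114, the interstitial collagenase MMP1 (3.54 ± 0.77, 11.6-fold) and the stromelysin MMP3 (2.37 ± 0.31, 5.18-fold) were higher, beside MMP13 with its bound. The plasminogen activators PLAU (2.78 ± 0.46) and PLAT (1.78 ± 0.23) and the collagen-modifying hydroxylases P4HA3 (1.89 ± 0.19) and PLOD1 (1.72 ± 0.50) were the other 4. In CMT-U309, the gelatinase MMP2 differed by -2.90 ± 0.57 on its brightest probe but by -0.49 on its other probe. SERPINF1, a serpin that binds collagen (-1.65 ± 0.52), the lysyl oxidase relatives LOXL4 (-1.51 ± 0.54) and LOXL3 (-1.49 ± 0.56) and the aggrecanase ADAMTS5 (-1.17 ± 0.32) were the others. MMP14, the membrane-bound activator of MMP2, was not called (-0.84 ± 0.21), nor was the collagen chaperone SERPINH1 (0.01 ± 0.17). ADAM19, a membrane-bound metalloproteinase, was detected in CMT-U309 only, at least 3.38-fold higher there.

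Laminins and integrins, the components and receptors of the basement membrane, were also called in both directions, with 4 of 22 higher in P114 and 6 in CMT-U309 and a median of 0.08 (-0.07 with quantile normalization). The median was 0.22 in monoculture and -0.16 in co-culture, and normexp left 0 and 1 calls. Within the laminins, LAMA4 was higher in CMT-U309, whereas LAMB3, a chain of the epithelial laminin of hemidesmosomes, was well above background in 4 P114 and 0 CMT-U309 channels and at least 13.6-fold higher in P114. LAMB1 was called higher in P114 (1.43 ± 0.29), with other probes at 0.11 to 1.55. Of the integrins, ITGA11, a collagen receptor (-1.91 ± 0.64), ITGA6, a laminin receptor (-1.88 ± 0.11), ITGB5 (-1.55 ± 0.41) and ITGA1 (-1.26 ± 0.33) were higher in CMT-U309, as was the linker protein DST (-1.34 ± 0.32). In P114, the hyaluronan receptor CD44 (1.81 ± 0.34), the tetraspanin CD9 (1.23 ± 0.21) and the collagen receptor subunit ITGA2 (1.02 ± 0.27) were higher. The common beta subunit ITGB1 (0.22 ± 0.53) and ITGAV (0.00 ± 0.16) were not called.

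Among 13 contractile genes of smooth muscle and myoepithelial cells measured in both lines, 1 (7.69%) was called higher in P114 and 4 (30.8%) in CMT-U309. Over all genes these shares were 7.23% and 5.68%, and the list median was -0.09. In monoculture the median was 0.50 and in co-culture -0.34, and the calls were 0 and 2 with normexp and 2 and 4 without either replicate. TPM2 had log2 signals of 9.52, 10.03, 9.68 and 9.69 in P114 and 16.22, 16.17, 16.13 and 15.92 in CMT-U309. Its difference of -6.38 ± 0.25 was 83.3-fold (adjusted p = 1.6e-10), the groups were far apart, and its other probe gave -6.42. TAGLN, an actin-binding protein of smooth muscle (-3.28 ± 0.43), PDLIM5, a LIM-domain scaffold (-3.08 ± 0.32), and FLNA, the actin cross-linker filamin A (-1.62 ± 0.42), were the other 3. TPM1, the related tropomyosin, was called higher in P114 (1.78 ± 0.27), although its other probes ran from -0.46 to 1.84. CNN1, the calponin of smooth muscle (-0.09 ± 1.53), and ACTG2, the enteric smooth muscle actin (0.13 ± 0.47), were not called.

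**Figure D3:**
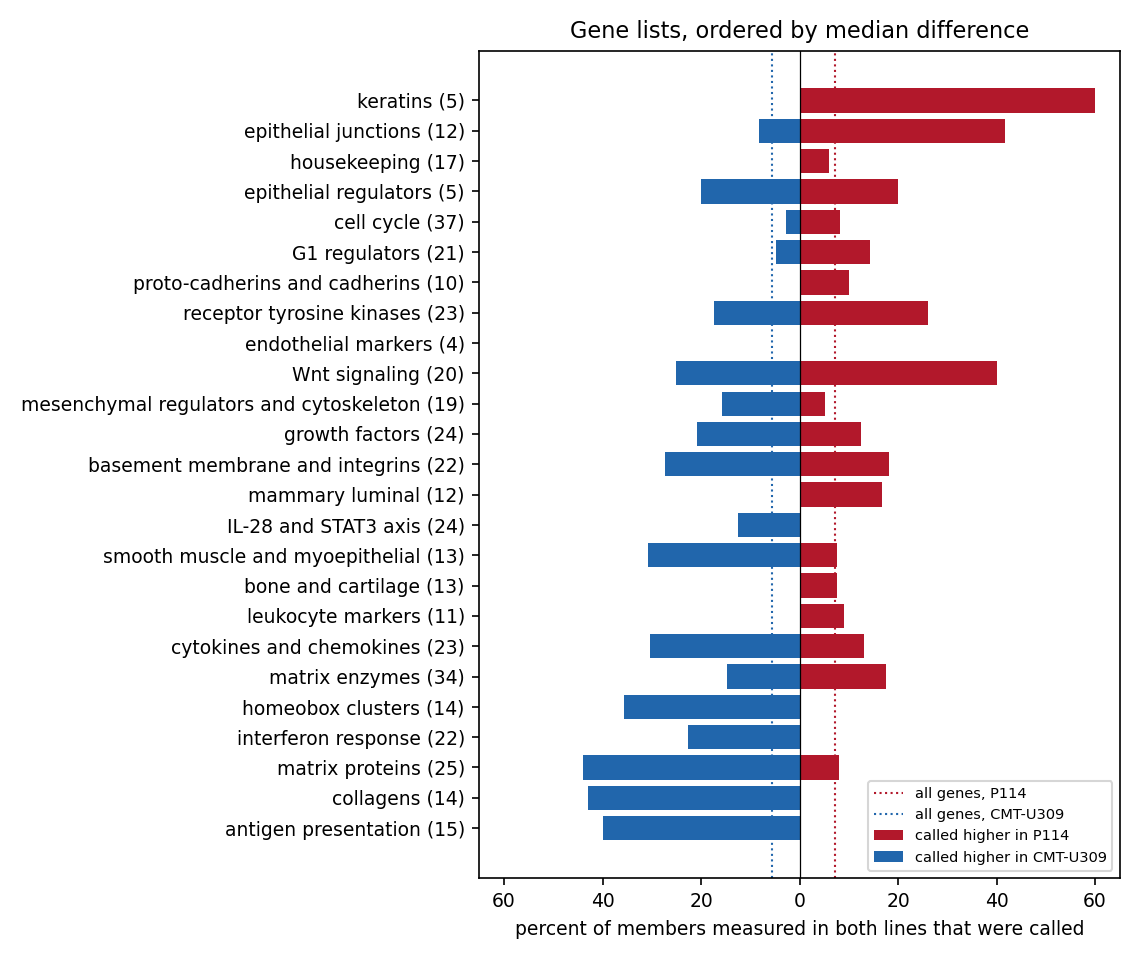
Percent of the members of 25 gene lists that were called higher in P114 (red, to the right) or in CMT-U309 (blue, to the left), among members measured in both lines, whose number stands in parentheses. Lists are ordered by their median difference and the dotted lines mark the shares over all genes, 7.23% and 5.68%. Keratins and epithelial junctions are at the P114 end, and antigen presentation, collagens and matrix proteins at the CMT-U309 end.

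Of the genes of luminal mammary cells and of hormone response, 12 of 35 were measured in both lines, and 2 were called higher in P114 and 0 in CMT-U309, with a median of 0.02 (-0.11 with quantile normalization). It was -0.09 in monoculture and 0.14 in co-culture, and normexp left 1 and 0 calls. GATA3, which directs luminal differentiation, had log2 signals of 11.15, 11.03, 11 and 10.77 in P114 and 6.11, 6.04, 6.48 and 6.4 in CMT-U309. The 4 P114 channels were above all CMT-U309 channels, by 4.73 ± 0.34 or 26.6-fold (adjusted p = 5.0e-09). NR3C1, the glucocorticoid receptor, was the other called gene (2.15 ± 0.71, adjusted p = 1.1e-05). FOXA1, a partner of GATA3 (-0.28 ± 0.31), PGR, the progesterone receptor (-0.52 ± 0.26), and ERBB2 (-0.19 ± 0.36) were not called. ESR1, the estrogen receptor, was well above background in no channel of either line. GHR, the growth hormone receptor, was at least 9.68-fold higher in CMT-U309. PROM1, a membrane protein used as a progenitor marker and named after its values were seen, was at 11.07, 11.08, 10.73 and 11.15 in P114 and well above background in 3 of 4 CMT-U309 channels.

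Receptor tyrosine kinases were called in both directions. Of 23 measured in both lines, 6 were higher in P114 and 4 in CMT-U309, with a median of 0.22 (-0.55 without scaling) and 1 call each way with normexp. MET, the receptor of hepatocyte growth factor, was higher in P114 (2.71 ± 0.20, 6.53-fold, adjusted p = 4.5e-07), and its ligand HGF was well above background in CMT-U309 only, at 8.16, 8.37, 7.44 and 7.41, at least 8.98-fold higher there. EGFR (1.67 ± 0.35) and its ligand EREG, epiregulin (2.08 ± 0.07), were both higher in P114. The platelet-derived growth factor receptors PDGFRA (1.41 ± 0.32) and PDGFRB (1.01 ± 0.37) and the ligand PDGFC (1.5 ± 0.36) were also called in P114, as were DDR1, a collagen receptor (1.20 ± 0.25), and EPHA2 (1.13 ± 0.47). In CMT-U309, MERTK (-1.76 ± 0.56), FLT1, a VEGF receptor (-1.62 ± 0.61), FGFR2 (-1.51 ± 0.47) and PTK7 (-1.08 ± 0.22) were called, and NTRK2 and KDR were detected only there, with bounds of 10.06-fold and 6.13-fold.

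Of 24 growth factors and their binding proteins measured in both lines, 3 were called higher in P114 and 5 in CMT-U309, with a median of 0.08 (-0.07 with quantile normalization), 0.19 in monoculture and -0.05 in co-culture. Normexp left 0 and 2 calls. Those higher in P114 were IGFBP4, which binds insulin-like growth factors (2.25 ± 0.29), EREG and PDGFC. The others were TGFB3 (-2.06 ± 0.19), the angiopoietin-like genes ANGPTL2 (-1.87 ± 0.33) and ANGPTL4 (-1.81 ± 0.28), VEGFC, the growth factor of lymphatic vessels (-1.79 ± 0.26), and KITLG, stem cell factor (-1.74 ± 0.16). PTN was at 9.53, 9.33, 10.01 and 9.55 in CMT-U309 and was at least 31.0-fold higher there. IGFBP2, chosen after its values were seen, was at 14, 14.36, 15.28 and 15.10 in CMT-U309 and above background in 3 of 4 P114 channels. VEGFA, the main angiogenic factor, was at 14.75, 14.61, 14.89 and 14.66 in P114 and 14.35, 14.66, 14.79 and 15.35 in CMT-U309. These values overlapped, and the difference was -0.06 ± 0.46 (adjusted p = 0.83), with 0.98 on its other probe.

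Wnt genes were called in both directions, among them 4 ligands higher in P114 and 3 secreted antagonists higher in CMT-U309. Ligands and antagonists were not lists of their own. Of 20 genes of the pathway measured in both lines, 8 were called higher in P114 and 5 in CMT-U309, with a median of 0.15 (-0.62 without scaling). With normexp these were 2 and 0, so no antagonist was called and WNT7B and WNT5B lost their calls, and without replicate 1 they were 8 and 3. Among ligands, WNT7B had log2 signals of 13.19, 13.18, 13.36 and 13.19 in P114 and 10.34, 9.99, 10.43 and 10.12 in CMT-U309, and its difference of 3.01 ± 0.15 was 8.06-fold (adjusted p = 7.1e-08). WNT5B (3.16 ± 0.70), WNT7A (2.62 ± 0.35) and WNT3 (2.62 ± 0.21) were called in the same direction, while WNT5A was not called (0.79 ± 0.62). PORCN, the acyltransferase that Wnt proteins need for secretion, was higher in P114 by 1.99 ± 0.25. Of the receptors, FZD6 (1.59 ± 0.33) and LGR4 (1.31 ± 0.23) were higher in P114, and FZD5 (-1.19 ± 0.13) and FZD2 (-1.04 ± 0.21) in CMT-U309. CTNNB1, beta-catenin, was higher in P114 by 1.32 ± 0.23. The antagonists DKK3 (-2.39 ± 0.42), SFRP4 (-1.10 ± 0.55) and FRZB (-1.04 ± 0.52) were called in CMT-U309, and the other probe of SFRP4 gave -0.05. SFRP2, another secreted antagonist, LEF1, a nuclear effector, and RSPO3, an agonist, were well above background in CMT-U309 only, with bounds of 59.3-fold, 7.84-fold and 2.67-fold.

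Of 23 cytokine and chemokine genes measured in both lines, among them the prostaglandin synthase PTGS2, 3 were called higher in P114 and 7 in CMT-U309, with a median of -0.11. With normexp 1 was called higher in P114 and 0 in CMT-U309. PTGS2, the inducible cyclooxygenase, had log2 signals of 11.99, 12.06, 12.19 and 12.34 in P114 and 7.85, 7.6, 8.36 and 8.07 in CMT-U309. It was higher in every P114 channel, by 4.17 ± 0.26 or 18.1-fold (adjusted p = 5.4e-09). IL34, a ligand of the receptor of macrophage colony-stimulating factor (1.74 ± 0.20), and CCL5, a T cell and monocyte chemokine (1.71 ± 0.47), were the other P114 calls. The monocyte chemokines CCL8 (-1.78 ± 0.31) and CCL2 (-1.23 ± 0.21), IL12A (-1.30 ± 0.14), IL18 (-1.22 ± 0.26), CCL17 (-1.11 ± 0.07), CSF2, a granulocyte-macrophage factor (-1.07 ± 0.15), and CXCL14 (-1.04 ± 0.41) were higher in CMT-U309. LTB, lymphotoxin beta, was at least 4.01-fold higher in P114. In 10 further genes of the list the signal was complete in 1 line and partial in the other, 7 complete in P114 and 3 in CMT-U309. Among them CSF3, the granulocyte factor, named after its values were seen, was at 7.87, 7.69, 7.61 and 7.74 in P114 and above background in 1 of 4 CMT-U309 channels.

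Of 22 genes of the interferon response measured in both lines, 0 were called higher in P114 and 5 in CMT-U309, with a median of -0.56. With normexp 2 of the 5, ISG15 and IFI35, remained called. ISG15, an interferon-induced ubiquitin-like protein, had log2 signals of 7.0, 7.14, 7.19 and 7.05 in P114 and 12.12, 11.87, 12.71 and 12.51 in CMT-U309. The groups were far apart in monoculture and in co-culture, and the difference was -5.21 ± 0.36, or 36.9-fold (adjusted p = 1.7e-09). IFI35 (-3.41 ± 0.30), STAT2, a transcription factor of interferon signaling (-1.84 ± 0.61), DTX3L, a ubiquitin ligase (-1.76 ± 0.23, but 0.50 with normexp), and ISG20, an exonuclease (-1.71 ± 0.37), were the other 4. OAS1 (-0.37 ± 0.66) and IRF1 (0.52 ± 0.22) were not called. In 9 further genes of the list the signal was complete in CMT-U309 and partial in P114, a class that genes higher in CMT-U309 enter more readily. MX1, an antiviral GTPase, and IRF7, a regulator of interferon genes, are 2 of these, chosen after their values were seen, and were at 9.81, 9.82, 10.69 and 10.46 and at 9.34, 8.99, 9.25 and 9.44 in CMT-U309, with 1 and 2 of 4 P114 channels above background.

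Of 15 antigen presentation genes measured in both lines, 0 were called higher in P114 and 6 in CMT-U309, with a median of -0.92. DLA-12, a class I gene of the dog major histocompatibility complex, had log2 signals of 10.38, 10.57, 10.69 and 10.17 in P114 and 13.39, 13.61, 13.94 and 13.25 in CMT-U309. It was higher in all 4 CMT-U309 channels, with a difference of -3.09 ± 0.11 (adjusted p = 6.0e-08), and its other probes gave -3.75 to -3.51. DLA-64, another class I gene, differed by -2.47 ± 0.09, and DLA-79 was at least 6.66-fold higher in CMT-U309. Class I genes are alike in sequence, and which of them a probe detects was not tested. The peptide transporter TAP1 (-1.13 ± 0.24), its partner TAPBP (-1.46 ± 0.41, other probe -0.15), the immunoproteasome subunit PSMB9 (-1.10 ± 0.32) and the protease LGMN (-1.43 ± 0.31) were called too. B2M, the class I light chain (-0.94 ± 0.30), and TAP2 (-0.92 ± 0.30) were not called. In 5 further genes of the list the signal was complete in 1 line and partial in the other, 3 complete in P114 and 2 in CMT-U309. With quantile normalization 8 of the 15 were called higher in CMT-U309, and with normexp background correction 0.

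The study turns on IL-28 and STAT3. Of 24 genes of this axis measured in both lines, 0 were called higher in P114, against 7.23% of all genes, and 3 (12.5%) in CMT-U309, against 5.68%, with a median of -0.07, and with normexp none was called. The 3 were STAT2, VEGFC and IL18, given above. STAT3 was at 9.93, 10.04, 9.83 and 9.85 in P114 and 9.41, 9.27, 9.16 and 9.39 in CMT-U309, with the 4 P114 channels on top by 0.60 ± 0.14 (adjusted p = 0.015), a sign that turned to -0.17 without scaling. IL10RB, a shared chain of the IL-28 receptor, differed by 0.53 ± 0.26 (adjusted p = 0.032), which turned to -0.24 without scaling. IL28RA, the specific chain of that receptor, was well above background in 0 P114 channels and 1 CMT-U309 channel, so no difference is given.

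Of 14 homeobox genes of the HOX clusters and their cofactors measured in both lines, 0 were called higher in P114 and 5 in CMT-U309, with a median of -0.43 (calls of 0 and 4 with normexp). HOXA6 (-3.26 ± 0.31, 9.59-fold), HOXB6 (-1.92 ± 0.27) and HOXA7 (-1.47 ± 0.24) and the cofactor MEIS2 (-2.33 ± 0.42) were among the 5. HOXA5 (-0.01 ± 0.31) and HOXC8 (-0.44 ± 0.46) were not called. HOXA9 and HOXA13 were detected in CMT-U309 only, with bounds of 2.32-fold and 2.02-fold. Of 13 bone and cartilage genes measured in both lines, 1 (7.69%), the bone morphogenetic protein BMP2 (1.91 ± 0.16), was called higher in P114 and 0 in CMT-U309. The shares over all genes were 7.23% and 5.68%, and the list median was -0.10, 0.01 in monoculture and 0.02 in co-culture. SPP1, a phosphoprotein of bone matrix, was detected in P114 only, and PTH1R, the parathyroid hormone receptor, in CMT-U309 only, with a bound of 2.65-fold.

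Of 37 cell cycle genes measured in both lines, 3 (8.11%) were called higher in P114 and 1 (2.7%) in CMT-U309, against 7.23% and 5.68% of all genes, with a median of 0.29 (-0.48 without scaling). The median was 0.52 in monoculture and 0.03 in co-culture, and with normexp or without replicate 1 no member was called in CMT-U309. TK1, thymidine kinase (1.67 ± 0.37), CDC45, of the replicative helicase (1.20 ± 0.30), and PCNA, the polymerase clamp (1.14 ± 0.33, other probe 0.41), were the P114 calls, and the centromere protein CENPA (-1.16 ± 0.39) was the other. Of 21 regulators of G1, 3 were called higher in P114 and 1 in CMT-U309, with a median of 0.24 (-0.53 without scaling). The calls were 1 and 0 with normexp, 4 and 0 without replicate 1 and 4 and 2 without replicate 2. CDKN1A, the p21 inhibitor of cyclin-dependent kinases, had log2 signals of 15.41, 15.63, 15.42 and 15.56 in P114 and 11.85, 11.67, 11.55 and 11.53 in CMT-U309. It was higher in every P114 channel, by 3.85 ± 0.21 or 14.5-fold (adjusted p = 9.5e-09). MDM2, a ubiquitin ligase (1.66 ± 0.29), and BAX, a promoter of apoptosis (2.05 ± 0.48), were the other P114 calls, whereas PMAIP1, also a promoter of apoptosis, was called higher in CMT-U309 (-1.07 ± 0.41). CDKN2B, a G1 inhibitor, was at 8.24, 7.92, 8.12 and 7.86 in CMT-U309 and at least 9.44-fold higher there. Its chromosomal neighbor MTAP, named after its values were seen, was at 8.55, 8.64, 8.71 and 8.69 in CMT-U309, with 3 of 4 P114 channels above background. No probe was found by the name CDKN2A.

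Markers of cells other than tumor cells were also examined, since co-cultured cells had shared medium with MDSCs. Of 37 leukocyte markers on the array, 11 were measured in both lines, with 1 (9.09%) called higher in P114 and 0 in CMT-U309. Over all genes these shares were 7.23% and 5.68%, and the list median was -0.11. The called gene was S100A8, a calcium-binding protein of myeloid cells and of some epithelia (2.25 ± 0.40). ITGAM and SPI1 were above background in no channel, PTPRC (CD45) in 0 P114 and 3 CMT-U309 channels. MPO, a neutrophil peroxidase, was well above background in CMT-U309 only, in monoculture and co-culture, at 9.82, 9.80, 10.19 and 9.85, and at least 38.6-fold higher. The summed signal of the 37 markers was 3617 to 4121 in P114 monoculture, 3570 to 4158 in P114 co-culture, 4717 to 4927 in CMT-U309 monoculture and 4818 to 4893 in CMT-U309 co-culture. The part of leukocyte RNA in the line differences was not tested. Of 14 endothelial markers, 4 were measured in both lines and 0 were called by limma, with a median of 0.19 (-0.58 without scaling), and LYVE1 and KDR were detected in CMT-U309 only, LYVE1 being at least 12.9-fold higher. Of 17 housekeeping genes 1 (5.88%, against 7.23% of all genes), RPLP0 (1.03 ± 0.27, other probes 0.14 to 1.5), was called higher in P114 and 0 in CMT-U309 (0 and 0 with normexp, and 1 in CMT-U309 without replicate 2). Their median of 0.54 fell to 0.14 with quantile normalization, 0.16 with loess and Aquantile normalization and -0.23 without scaling.

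A count of 0 called members means that none passed both the 2-fold and the adjusted p threshold. At an unadjusted limma p under 0.05 with no fold threshold, members higher in P114 numbered 0 of the collagens, 5 of the interferon, 0 of the antigen presentation, 7 of the IL-28 and STAT3 and 2 of the homeobox genes. By the methods' t-test these were 0, 2, 1, 2 and 0. That name marks only the kind of test, here applied to the line difference. The study's methods used t-tests to compare co-culture with monoculture and described none between lines. Members higher in CMT-U309 numbered, by limma, 1 each of the keratins, bone, luminal and other cadherin genes, 0 of the leukocyte markers and 2 of the housekeeping genes. By the t-test these were 0 keratins, 0 bone, 2 luminal and 1 cadherin gene, 1 leukocyte marker and 0 housekeeping genes. Of the endothelial markers, 0 passed in limma in either direction and 1 was higher in P114 by the t-test.

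Across the 8035 genes, the monoculture and co-culture differences correlated at 0.869, a value that describes genes rather than replicates and rests on the same slides in both conditions. In 531 genes both monoculture differences had the opposite sign to both co-culture differences. KRT18 differed by 5.73 in monoculture and 5.69 in co-culture, COL3A1 by -5.47 and -5.40, ISG15 by -4.92 and -5.49, and EPDR1 by 7.94 and 9.09. With 2 channels per condition no test was made of whether the line difference changed with co-culture, and an exact permutation of 2 against 2 cannot go below p = 0.33.

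**Figure D4:**
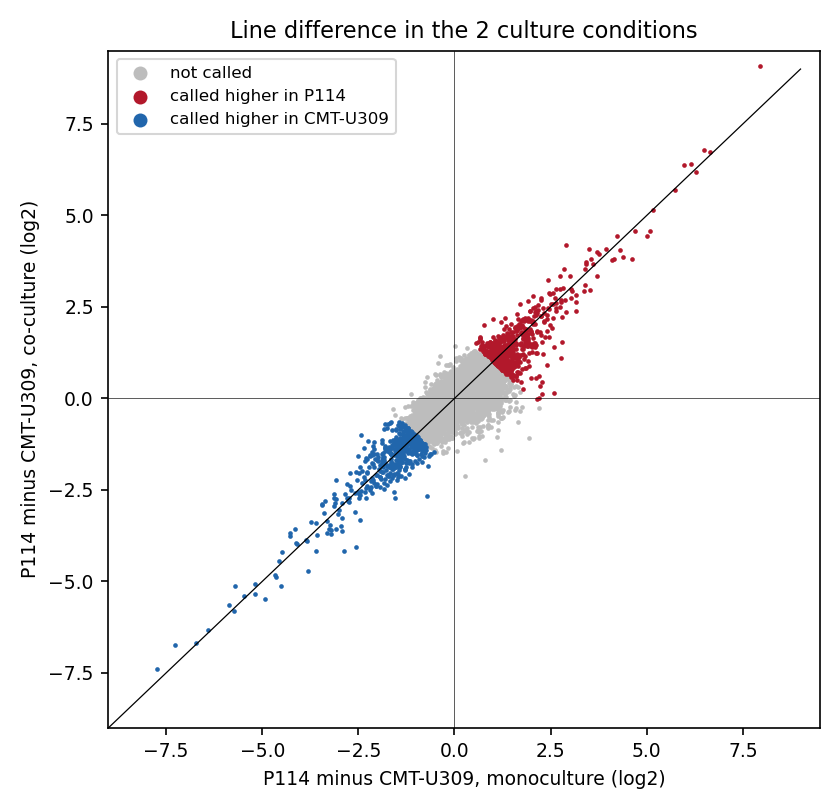
Difference between P114 and CMT-U309 (log2) in monoculture on the horizontal and in co-culture on the vertical axis, each the mean of 2 channels, for the 8035 genes measured in both lines. Red and blue points were called higher in P114 and in CMT-U309, and the line marks equal differences. The points follow the line, with a correlation of 0.869 across genes.

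The called genes were unevenly spread over the chromosomes. Of the 8035 genes, 7993 had a position on canFam2. On chromosome 36, 22 of 75 genes (29.3%) were called higher in CMT-U309 and the median difference was -0.56, and on chromosome 12 these values were 36 of 259 (13.9%) and -0.31. On chromosome 13, 38 of 152 genes (25%) were called higher in P114 with a median of 0.62, on chromosome 19, 15 of 69 (21.7%) with a median of 0.66, and on chromosome 22, 23 of 85 (27.1%) with a median of 0.29. Among 7447 windows of 15 neighboring genes, whose medians ran from -0.351 at the 5th to 0.592 at the 95th percentile, the highest median was 1.755, at chr22:6197323-12617073. There 13 of 15 genes were called higher in P114, from ITM2B to ELF1. The next window on another chromosome was chr13:7791397-19372184, with a median of 1.13 and 8 of 15 genes called higher in P114 (FZD6, EIF3E, EIF3H and RAD21 lie within it). The lowest medians were -0.944 at chr36:21499748-25117349, with 6 of 15 called higher in CMT-U309 (ATF2 and NFE2L2 lie within it), and -0.912 at chrX:11155236-16013917, with 7 of 15. These windows were chosen for their values, so the counts describe them and carry no test.

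**Figure D5:**
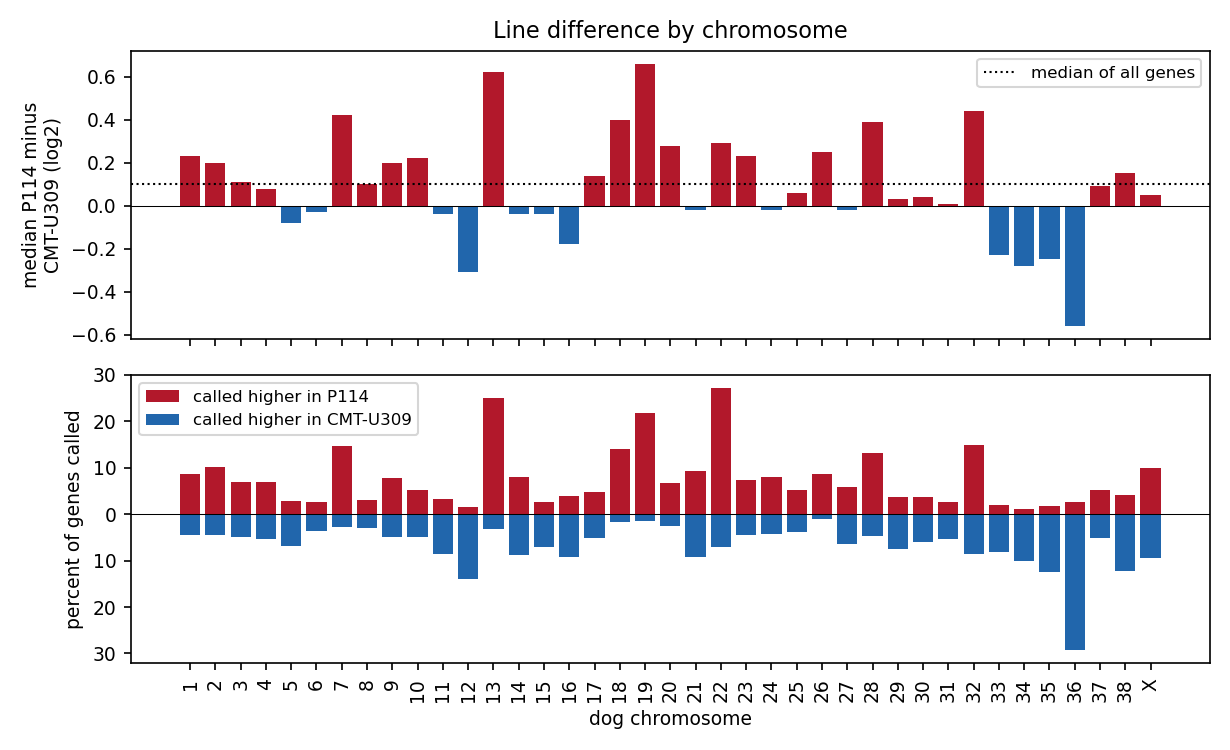
Line difference by dog chromosome for 7993 genes measured in both lines. The upper panel shows the median P114 minus CMT-U309 difference (log2), with the dotted line at the median of all genes, and the lower panel the percent of genes called higher in P114 (red, upward) and in CMT-U309 (blue, downward). Chromosomes 13, 19 and 22 are the highest red bars in the lower panel, and chromosome 36 the longest blue bar at 29.3%.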

How the data were processed

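Gene expression of P114 and CMT-U309 cells in monoculture and in co-culture with MDSCs was measured on Agilent canine 4x44K arrays, in a dye-swap of 2 arrays per line. The authors deposited scanner output with the intensity of 43803 spots per array, extracted with Feature Extraction 10.10.1.1 per the file headers and 10.7.3.1 per the labels. Its processed signal intensities are background-subtracted and dye-normalized (linear and lowess methods), with surrogates in place of low values (16.3% to 27.5% of spots in the P114 channels and 5.87% to 21.5% in the CMT-U309 channels). A deposited table of log10 ratios within arrays compares conditions, not lines, and was not used.

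Here control and outlier spots were dropped, log2 was taken of each spot, spots of a probe were averaged, and every channel was scaled to a common median. A probe counted as well above background in a channel when the software flagged more than a share of 0.5 of its spots so. Of 43603 probes, 20741 had a symbol (20383 from the gene name column, 354 from the description and 4 from the accession), with 13220 distinct symbols of which 11761 are in the RefSeq table of dog genes. Positions are on canFam2, as the files give them. The 2 dyes of an RNA were averaged, which left 4 RNAs, and limma 3.58.1 in R 4.3.3 tested line with culture condition in the model over 24906 probes well above background in all channels of at least 1 line (residual df 1 per probe, prior df 10.33). The Benjamini-Hochberg adjustment was made over all these probes, and calls were read from the brightest probe of each of the 8035 genes measured in both lines. The fit was tested on simulated data. Python 3.11.15 with pandas 2.3.3 read the files and matplotlib 3.10.9 drew the plots.

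Named genes are the 10 largest differences in each direction among called genes at least 2-fold in all 4 matched differences, the 6 largest bounds for each line, up to 5 members in each direction of each gene list by the same criteria, and 17 genes given whatever their value. The genes, lists and tests were chosen with earlier results of these data known. The alternatives were quantile, loess with Aquantile, 75th percentile and no scaling, normexp background correction with an offset of 50, outlier spots kept, other filters on dim probes, the median over a gene's probes, each condition alone, each replicate left out, all 3 cell lines in the fit, fits of the 8 channels with and without a replicate block, eBayes without a trend and the methods' t-test. The replicate number marks the dye orientation, and arrays with the same number shared no culture. The number of arrays limits the precision, and no interval was computed. Some genes that the rule takes or that complete a count are not reported here.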

Additional observations from a re-analysis of the deposited data

How the results depend on the processing

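The counts of called genes, 581 higher in P114 and 456 in CMT-U309, moved with the test, the background correction and the scaling. With no scaling they were 141 and 2211, and with normexp background correction 84 and 134, while the genes at least 2-fold higher in P114 in all 4 matched differences fell from 265 to 35 and 49. Those in CMT-U309 went from 272 to 293 with no scaling and 17 with normexp. The median of all genes was -0.01 with quantile, -0.02 with loess and Aquantile, 0.02 with 75th percentile scaling and -0.06 with normexp. The P114 share of the calls was 56%, and 45.4% with quantile, 44.5% with loess and Aquantile, 38.5% with normexp and 5.99% with no scaling. Over 2 matched differences, 498 genes were at least 2-fold higher in P114 in monoculture only and 449 in co-culture only. Leaving out a replicate gave 571 to 733 calls for P114 and 449 to 533 for CMT-U309, and 330 to 517 and 349 to 394 genes at least 2-fold in the remaining 2 differences. The t-test between the lines, named after the methods' t-test of co-culture against monoculture, called 233 and 204 genes. After Benjamini-Hochberg adjustment it called 0 and 0, with 1293 genes at an unadjusted p under 0.05. The cause of these moves was not tested, apart from the smaller number of differences required when a condition or a replicate is left out.

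The fit of 8 channels with a replicate block gave 581 and 456 calls, as did the fit with no block. These fits took the 2 dyes of an RNA as separate values. Same-numbered arrays of the 2 lines deviated from their line means with a correlation of -0.252, and with the block crossed between the lines, an alternative chosen after seeing the data, the counts were again 581 and 456. The balanced design gives every one of these fits the same line difference per gene as the main fit. The equal counts therefore do not test how arrays were paired.

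Of 98 called genes among those named by the rule, 98 stayed called with quantile, loess and Aquantile and 75th percentile scaling. Most were chosen for large differences, which made this outcome likely beforehand. Without scaling 12 of the 98 were no longer called and with the methods' t-test 37. With normexp 47 kept their direction without the call and 1, DTX3L, turned. Of all 581 P114 calls, 450 stayed with quantile, 444 with loess and Aquantile and 492 with 75th percentile scaling. All 456 CMT-U309 calls stayed with these scalings. Signs turned for CDH2 (-0.44 without scaling, 0.79 and -0.13 without replicate 1 and 2), DTX3L (0.50 with normexp), IL10RB (-0.24 without scaling), STAT3 (-0.17 without scaling), VEGFA (0.46 with the median over probes, 0.18 in monoculture only, -0.37 and 0.25 without replicate 1 and 2) and VIM (-0.12 with quantile, -0.15 with no scaling, -0.14 with loess and Aquantile). Genes near background have only bounds, and their differences are limited by the surrogate signals.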
